A study of Mus musculus with 9 samples.

Results

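The genes of glycolysis, gluconeogenesis and the pentose phosphate pathway were examined in the LSK (Lin-Sca1+Kit+) fraction of mouse bone marrow, the stem and early progenitor cells of blood. The 43 genes were taken by symbol from the 24060 named rows of a table of RNA-seq read counts, and all 43 were found. They cover glucose uptake, each step from hexokinase to lactate, the fructose-1,6-bisphosphatases, the steps from pyruvate to phosphoenolpyruvate, the pentose phosphate pathway, and pyruvate dehydrogenase with its kinases. Fbp1 was set against the other enzymes.

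There were 3 control libraries (C57BL/6 marrow), 2 NHD13 libraries and 4 libraries labelled NHD13/MSI2. NHD13 is a transgene for the NUP98-HOXD13 fusion under the Vav promoter, which is active in blood cells, and it gives mice a myelodysplastic syndrome. NHD13/MSI2 cells carried in addition the KH2-Col1A1-tet-on-MSI2/ROSA26-rtTA alleles, which induce the RNA-binding protein MSI2 with doxycycline. In all 3 groups the marrow came from C57BL/6 donors and had been transplanted, with CD45.1+ helper cells, into lethally irradiated congenic recipients, and the LSKs were profiled after 3 months of doxycycline. The labels give an age of 4 months for every sample, without stating what it counts from. The study dates the libraries to 4 months after transplantation, and its primary donors were 3 to 4 months old. The library names carry the word dox for NHD13/MSI2 only, and those of control replicates 2 and 3 carry MPP and HSC where that of control replicate 1 carries Bulk. The study describes the libraries as from transplanted animals, without stating for each library that it is a separate mouse, so the p-values measure the spread between these libraries, part of which may be technical.

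Glycolysis splits glucose to pyruvate and yields ATP and NADH. Phosphofructokinase commits the sugar to this path by making fructose-1,6-bisphosphate, and fructose-1,6-bisphosphatase takes the phosphate off again, so the pair runs the same step in opposite directions. Gluconeogenesis, which uses the bisphosphatase, is a function of liver and kidney. The pentose phosphate pathway leaves glycolysis at glucose-6-phosphate and gives NADPH and ribose for nucleotides. Haematopoietic stem cells in their niche are known to rely on glycolysis and to restrain the entry of pyruvate into mitochondria through pyruvate dehydrogenase kinases, whereas progenitors and cycling cells use more oxidative metabolism.

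The libraries held 19242153 to 23013493 counts on named genes, so 3 counts, the limit that a count of 0 allows, stand for 0.130 to 0.156 CPM (counts relative to the library total) before scaling. This limit covers counting error only. Kit, at 908 to 2254 CPM, and Ly6a, which encodes Sca1, at 48.3 to 375 CPM, were found in all 9 libraries. Msi2 itself was at 223, 316 and 266 CPM in control, at 139 and 111 CPM in NHD13 and at 88.0, 77.1, 82.8 and 241 CPM in the libraries labelled NHD13/MSI2, and its log2 fold change in the labelled libraries over NHD13 was -0.03 ± 0.44 (SE, adjusted p = 0.983). The labelled libraries thus overlapped NHD13 in Msi2 counts through replicate 4 alone, and replicates 1 to 3 lay below both NHD13 libraries. Every direction given for NHD13/MSI2 rests on the label. Reads of a human transgene count only as far as they align to the mouse gene, and this was not tested. Xist was at 21712 and 21664 counts in control replicates 1 and 3 and at most at 49 counts elsewhere, so the control group mixes sexes and the other groups do not. Of the 43 genes, Pfkfb1, Pgk1, G6pdx, Pdha1 and Pdk3 lie on the X chromosome, and the part of sex in their levels was not tested. Replicate 4 of NHD13/MSI2 stood apart from the other libraries of its label, with a chi-square per gene of 398 to 426 against them where they differed from each other by 18.8 to 32.4. Calls among the 43 genes that edgeR gained or lost without it are given both ways, and most other values with it alone. The 2 NHD13 libraries differed from each other by 75.4 and the control libraries by 25 to 44.5. Correlations of log2 CPM were 0.957 between the NHD13 libraries, 0.983 to 0.988 within control and 0.954 to 0.959 between replicate 4 and the rest of its label.

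Of the 43 genes, 42 passed the filter on low counts and were tested, and the remaining gene was Fbp2. A gene was called at an adjusted p under 0.01 over all 13355 genes tested, by edgeR unless another tool is named. In NHD13/MSI2 over NHD13, 1 of the 42 was called, Fbp1, which rose. Of all genes tested 0.584% were called higher and 2.58% lower in that comparison. The log2 fold changes of the 42 genes had a median of 0.17, where that of all genes tested was -0.03, and 26 were positive and 16 negative. The range was -3.86 to 4.87. At an unadjusted p under 0.05, 9 were higher and 3 lower, against 7.84% and 13.9% of all genes tested. The groups did not overlap in CPM for 11 genes that were higher and 6 that were lower, where 13% and 16.9% of all genes tested were so placed.

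In NHD13/MSI2 over control, 4 of the 42 genes were called. Fbp1, Hk3 and Aldoa rose and Pck2 fell, against 4.49% of all genes tested that were called higher and 6.55% that were called lower. At an unadjusted p under 0.05, 9 were higher and 7 lower, against 14.5% and 18.3% of all genes. The median log2 fold change of the 42 genes was 0.09 where that of all genes was -0.01. Groups did not overlap in CPM for 10 genes that were higher and 7 that were lower, against 15.3% and 20.4% of all genes. In NHD13 over control edgeR's quasi-likelihood test called 0 of the 42 genes, where 1.03% of all genes were called, 0.824% higher and 0.21% lower, and DESeq2 called 1, Eno3. At an unadjusted p under 0.05, 1 of the 42 was higher and 4 were lower, against 7.66% and 5.83% of all genes, and the median log2 fold change was -0.05 against 0.02 for all genes. Groups did not overlap for 3 genes that were higher and 8 that were lower, against 18.9% and 18.5% of all genes. The comparisons share libraries and are not independent of each other. With so few calls the counts say little of the list as a whole, and the called changes are those of Fbp1, Hk3, Aldoa and Pck2.

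**Figure D1:**
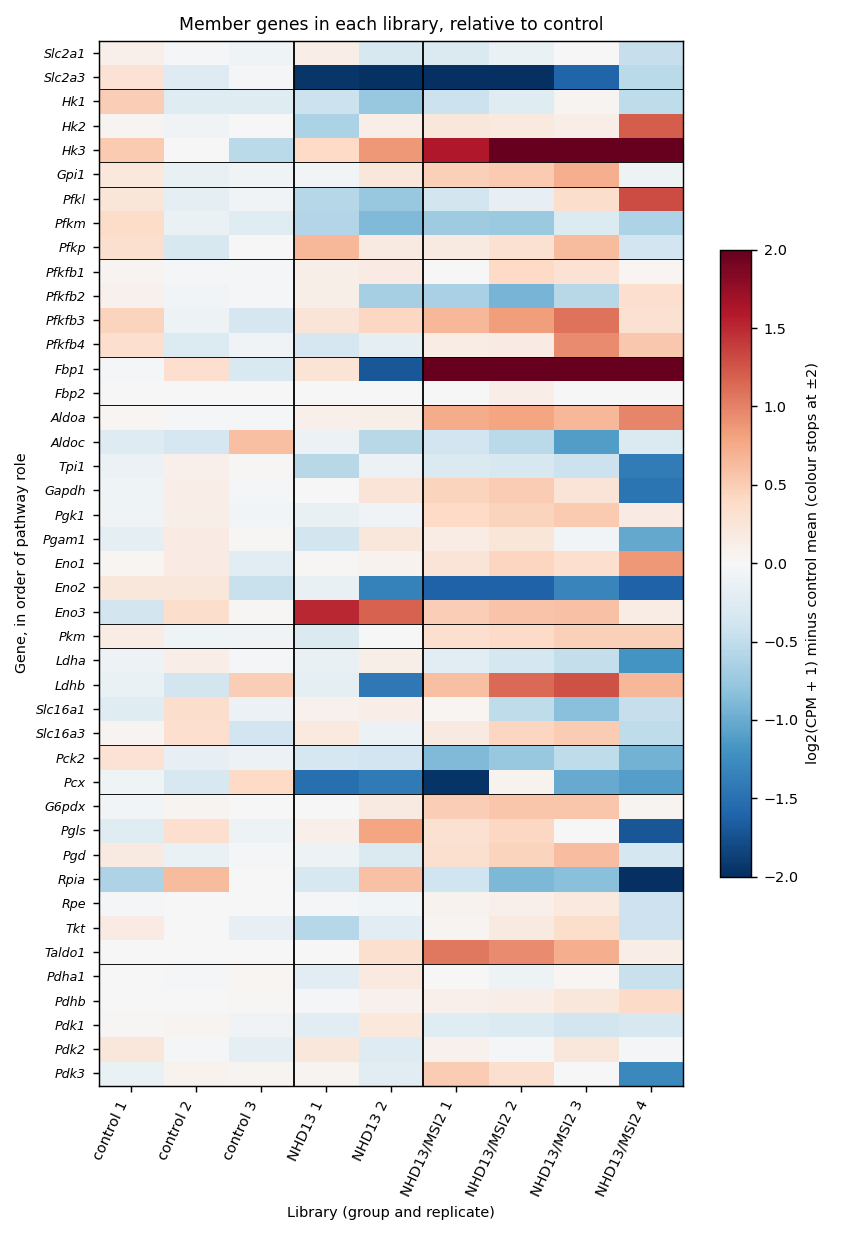
Colour shows log2(CPM + 1) minus the control mean for the 43 genes (vertical axis, in order of role) in each of the 9 libraries (horizontal axis), and it stops at ±2. Fbp1 and Hk3 are red in all 4 NHD13/MSI2 libraries, Slc2a3 is blue in both NHD13 libraries and in NHD13/MSI2 replicates 1 to 3, and the column of NHD13/MSI2 replicate 4 differs from its neighbours for Gapdh, Tpi1, Rpia and Pgls.

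Fbp1 encodes the fructose-1,6-bisphosphatase of liver and kidney, which is also made in monocytes and macrophages. GENCODE M21 places it at 62864753 to 62888282 on the minus strand of GRCm38 chromosome 13, and Fbp2, the bisphosphatase of muscle, next to it on that strand at 62836877 to 62858422, with 6330 bases between the genes. Fbp1 was at 38.9, 50.3 and 31.8 CPM in the control libraries. It was at 48.0 and 11.6 CPM in NHD13 and at 698, 957, 774 and 1066 CPM in NHD13/MSI2. Every NHD13/MSI2 library stood far above each of the others, and control and NHD13 overlapped. The group means were 40.4 ± 9.32 CPM (SD, n = 3), 29.8 ± 25.7 CPM (SD, n = 2) and 874 ± 168 CPM (SD, n = 4), so the mean of NHD13/MSI2 was 29.3 times that of NHD13 and 21.7 times that of control.

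In edgeR's fit over all genes (quasi-likelihood F-test, p-values adjusted by Benjamini-Hochberg), Fbp1 rose by a log2 fold change of 4.87 ± 0.59 (SE, adjusted p = 0.00208) over NHD13 and of 4.44 ± 0.48 (SE, adjusted p = 0.000341) over control. By size of change it stood at place 53 from the top of 13355 genes over NHD13 and at place 161 over control. The difference between NHD13 and control was -0.44 ± 0.49 on the log2 scale (SE, adjusted p = 0.851). The 2 NHD13 libraries differed in Fbp1, so the change over NHD13 was 6.26 without NHD13 replicate 1 and 4.23 without NHD13 replicate 2, with adjusted p-values of 0.000973 and 0.00151. A fit of only the NHD13/MSI2 and NHD13 libraries gave 4.87 with an adjusted p of 0.0205, so the call was lost there, and the change over control was called in each of the 15 other fits.

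Fbp2 had 2 counts in NHD13/MSI2 replicate 2, which is 0.0997 CPM, and 0 counts in the other 8 libraries. A count of 0 allows up to 3 counts, so Fbp2 was not detectable above 0.156 CPM before scaling in those libraries. Of the adjacent genes, Fbp1 was thus read in every library and Fbp2 in 1.

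The 250 bases before the RefSeq start of each of the genes (GRCm38.p6) are printed because these neighbours, with the same enzyme activity, had such different counts. Capitals mark the motifs that were searched on both strands, which were an E-box (CACGTG), a PU.1-type core (GAGGAA, or TTCCTC on the other strand), a GC box (GGGCGG) and a TATA box (TATAAA). Coordinates and sequence are from RefSeq, since the count table holds none and the authors' build was mm9. The minus strand was read for both.
Fbp1, chr13:62888283-62888532: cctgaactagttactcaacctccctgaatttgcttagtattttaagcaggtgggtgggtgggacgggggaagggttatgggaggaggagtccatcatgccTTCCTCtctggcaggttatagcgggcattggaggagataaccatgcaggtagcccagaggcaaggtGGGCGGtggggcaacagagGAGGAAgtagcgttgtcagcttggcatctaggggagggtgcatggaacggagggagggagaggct
Fbp2, chr13:62858401-62858650: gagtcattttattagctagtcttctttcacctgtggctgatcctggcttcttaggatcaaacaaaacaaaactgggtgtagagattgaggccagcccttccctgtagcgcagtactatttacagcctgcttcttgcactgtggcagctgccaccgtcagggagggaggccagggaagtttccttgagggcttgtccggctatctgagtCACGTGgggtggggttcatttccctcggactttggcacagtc
The window of Fbp1 held the PU.1-type core 65 bases before the start and, on the other strand, 150 bases before it, and a GC box 84 bases before it. That of Fbp2 held none of these, and an E-box 42 bases before the start. Over all 32851 RefSeq promoter windows of this length, 23.3% held the PU.1-type core, 32.7% a GC box, 6.02% an E-box and 12.4% a TATA box. Of the 63 windows of the 42 genes that had one, 25.4%, 52.4%, 12.7% and 3.17% did. A match of letters is a description and does not show that a factor binds.

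**Figure D2:**
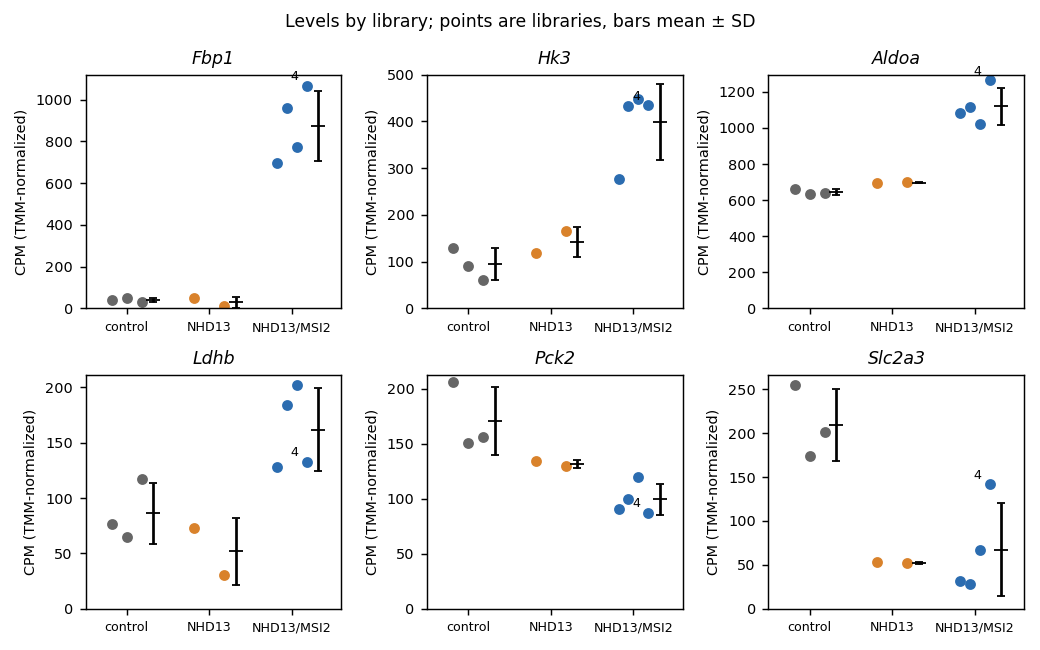
Points are libraries and bars the mean ± SD in TMM-normalized CPM (vertical axes, from 0) for Fbp1, Hk3, Aldoa, Ldhb, Pck2 and Slc2a3 in the 3 groups (horizontal axes), and the digit 4 marks NHD13/MSI2 replicate 4. The 4 NHD13/MSI2 libraries lie above all others for Fbp1, Hk3, Aldoa and Ldhb and below them for Pck2, whereas for Slc2a3 the control libraries lie above the rest.

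None of the phosphofructokinases, which Fbp1 opposes, was called. Counts of Fbp1 were 0.104, 0.190 and 0.110 times the summed counts of Pfkl, Pfkm and Pfkp in the control libraries and 0.172 and 0.0522 times in NHD13. In NHD13/MSI2 they were 2.72, 3.35, 1.99 and 2.06 times the sum. After division by exon length the ratio was 0.260 to 0.473 in control, 0.135 and 0.447 in NHD13 and 6.98, 8.62, 5.10 and 5.19 in NHD13/MSI2. Fbp1 transcripts were therefore fewer than those of the phosphofructokinases in all 5 control and NHD13 libraries and more in all 4 NHD13/MSI2 libraries. Of all counts on the 43 genes, Fbp1 took 0.161% to 0.751% in control and NHD13 and 7.62% to 12.2% in NHD13/MSI2. These ratios are a description of the libraries, since Fbp1 was singled out with its values known.

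**Figure D3:**
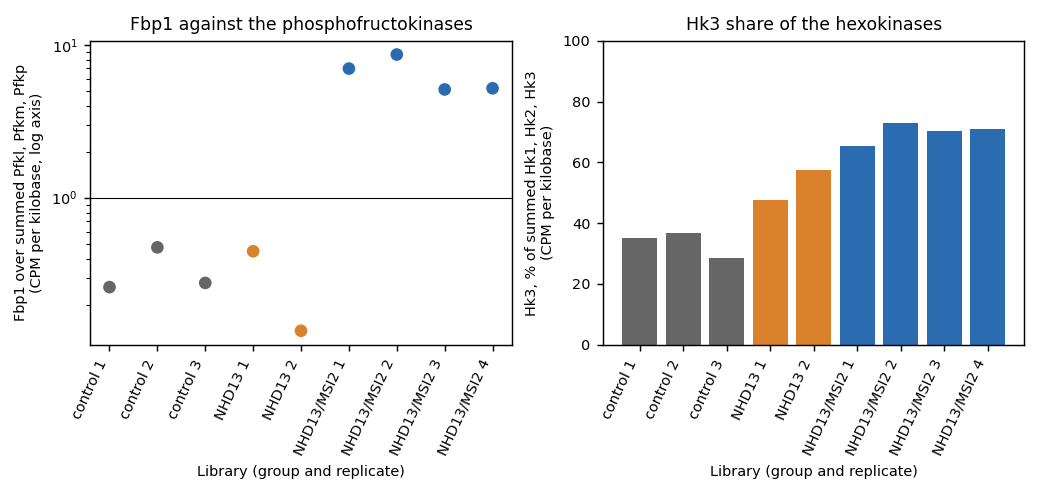
Left, the ratio of Fbp1 to the summed phosphofructokinases in CPM per kilobase of exon (vertical log axis) in each library, with a line at equality. The 5 control and NHD13 libraries lie at 0.135 to 0.473 and the 4 NHD13/MSI2 libraries at 5.10 to 8.62. Right, the percentage of Hk3 among the hexokinases in CPM per kilobase, which runs from 28.3% in control replicate 3 to 72.8% in NHD13/MSI2 replicate 2.

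Markers of other cells also differed between the groups. The 12 markers of granulocyte-monocyte progenitors (GMPs) and monocytes summed to 2001 to 2729 CPM in control, 4144 to 5288 CPM in NHD13 and 10360 to 17130 CPM in NHD13/MSI2. Most of each sum was Mpo, at 1195 to 1862 CPM, 2959 and 3807 CPM and 7845 to 13880 CPM. In NHD13/MSI2, edgeR called 2 of the 12 higher over NHD13 and 5 over control, against 0.584% and 4.49% of all genes tested. In NHD13 over control it called 2 higher, against 0.824% of all genes. In each comparison 0 were called lower, where 2.58%, 6.55% and 0.21% of all genes were. DESeq2 called 4, 6 and 3 of the 12 higher in these comparisons and 1 lower, Csf3r in NHD13 over control. The log2 fold changes were negative for 1, 1 and 4 of the 12 in these comparisons. The 9 macrophage markers summed to 50.3 to 78.5 CPM, 160 to 190 CPM and 205 to 311 CPM, and 0 of them were called by edgeR over NHD13 (1 was higher and 1 lower at an unadjusted p under 0.05, and DESeq2 called 1 higher) and 2 higher over control. In NHD13 over control edgeR called 1 of the 9 higher, and 2 of the 9 log2 fold changes were negative. The shares of all genes called higher were again 0.584%, 4.49% and 0.824% in the 3 comparisons. Cd68 alone was at 19.8 to 27.8 CPM, 87.3 and 102 CPM and 162 to 261 CPM. The part of these cells in the level of Fbp1 was not tested, and in RNA from a sorted population more cells of a type and more RNA per cell cannot be told apart. The 12 stem cell markers summed to 5070 to 6198 CPM in control, 2248 to 3832 CPM in NHD13 and 1997 to 2667 CPM in NHD13/MSI2. Of the 12, edgeR called 9 lower over control and 6 lower over NHD13, against 6.55% and 2.58% of all genes tested. It called 0 higher, and 1 log2 fold change was positive over control and 2 over NHD13. Ly6a went up, by 1.60 ± 0.39 (SE, adjusted p = 0.0167) over control and 2.15 ± 0.47 (SE, adjusted p = 0.0221) over NHD13. DESeq2 called Ly6a higher in both. Of 7 markers of hepatocytes and kidney tubules, the cells best known for Fbp1, 6 had 3 counts or fewer in every NHD13/MSI2 library, Alb, G6pc and Pck1 among them. The exception was Slc34a1, the phosphate carrier of the kidney tubule, at 13.5, 12.7, 7.06 and 4.54 CPM in NHD13/MSI2 and at most 0.782 CPM elsewhere.

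Glucose enters these cells through facilitative transporters, and Slc2a3, which encodes GLUT3, had the higher level per length of the 2 examined in every control and NHD13 library. In NHD13/MSI2 they overlapped, at 6.99 to 35.9 CPM per kilobase of exon for Slc2a3 and 8.08 to 11.4 for Slc2a1, and the highest value of Slc2a3 was that of replicate 4. Slc2a3 was at 254, 174 and 201 CPM in control and at 52.8 and 51.6 CPM in NHD13. In NHD13/MSI2 it was at 31.4, 27.7, 67.4 and 142 CPM, with replicate 4 highest. Neither of the other groups overlapped control, and NHD13/MSI2 overlapped NHD13. The log2 fold change was -1.65 ± 0.50 (SE, adjusted p = 0.0447) in NHD13/MSI2 over control and -2.01 ± 0.64 (SE, adjusted p = 0.173) in NHD13 over control, so edgeR called neither. DESeq2 called it lower in NHD13/MSI2 over control, at -1.64 with an adjusted p of 0.00728, and so did the fit with the replicate number as a block, at -2.42 with an adjusted p of 0.00194. Without NHD13/MSI2 replicate 4 Slc2a3 was called lower over control, at -2.30 ± 0.33 (SE, adjusted p = 0.00142), and with only the control and NHD13 libraries in the fit it was called lower in NHD13, at -2.01 with an adjusted p of 0.00695. Slc2a1, which encodes GLUT1, was at 26.3 to 40.6 CPM in all 9 libraries and its groups overlapped in each comparison.

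Hexokinases trap glucose in the cell as glucose-6-phosphate. Hk3 is the form of myeloid cells and Hk1 the form found in most tissues, while Hk2 is the form that growth signals induce. Hk3 was at 130, 90.6 and 61.9 CPM in control, at 119 and 165 CPM in NHD13 and at 276, 433, 447 and 435 CPM in NHD13/MSI2. Replicate 1 was the lowest of its group and still above every control and NHD13 library. Hk3 rose over control by a log2 fold change of 2.08 ± 0.29 (SE, adjusted p = 0.00119), which is 4.23 times in the group means, and it was called in each of the 15 other fits. Over NHD13 the change was 1.49 ± 0.33 (SE, adjusted p = 0.0238) and was not called by edgeR, while DESeq2 called it (adjusted p = 0.000173).

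Hk1 was at 303, 182 and 181 CPM in control, 160 and 127 CPM in NHD13 and 159, 183, 224 and 152 CPM in NHD13/MSI2. The groups overlapped, and its log2 fold changes of 0.32 ± 0.26 (SE, adjusted p = 0.539) over NHD13 and -0.31 ± 0.22 (SE, adjusted p = 0.383) over control were not called. Hk2 was at 49.3 to 53.9 CPM in control, 32.8 and 56.9 CPM in NHD13 and 57.0 to 60.8 CPM in NHD13/MSI2 replicates 1 to 3, with replicate 4 at 121 CPM. Per kilobase of exon, Hk3 made up 28.3% to 36.9% of the hexokinases in control, 47.7% and 57.5% in NHD13 and 65.4% to 72.8% in NHD13/MSI2. The ranges of the groups did not overlap, and the most abundant hexokinase was Hk1 in control and Hk3 in NHD13 and NHD13/MSI2.

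The gene Hk3 is on the minus strand of chromosome 13 at 55005985 to 55021385 (GRCm38, GENCODE M21), the chromosome of Fbp1. Its promoter window is printed beside those of the bisphosphatases because Hk3 is the gene that rose most after Fbp1 among those called.
Hk3, chr13:55021386-55021635: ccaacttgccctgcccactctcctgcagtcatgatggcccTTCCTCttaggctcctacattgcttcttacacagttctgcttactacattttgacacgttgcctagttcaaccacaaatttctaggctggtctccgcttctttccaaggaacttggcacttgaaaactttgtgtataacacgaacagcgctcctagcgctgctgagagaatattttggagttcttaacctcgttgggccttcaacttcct
The minus strand was read, and the capitals mark the PU.1-type core on the other strand, 210 bases before the start. No other motif of the 4 searched was in this window.

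Phosphoglucose isomerase joins hexokinase to phosphofructokinase, and its gene Gpi1 was at 561, 440 and 464 CPM in control, 468 and 567 CPM in NHD13 and 679, 702, 809 and 455 CPM in NHD13/MSI2. Replicates 1 to 3 of NHD13/MSI2 lay above all other libraries and replicate 4 lay among them. The log2 fold changes of 0.35 ± 0.24 (SE, adjusted p = 0.449) over NHD13 and 0.44 ± 0.21 (SE, adjusted p = 0.181) over control were not called.

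Among the phosphofructokinases Pfkl, the liver form, had the highest mean level per length in every group. In NHD13 its range of 26.84 to 30.38 CPM per kilobase of exon overlapped that of Pfkp, at 21.75 to 30.43. Pfkl was at 200, 150 and 161 CPM in control, 113 and 100 CPM in NHD13 and 130, 151, 216 and 420 CPM in NHD13/MSI2, where replicate 4 was highest. Its log2 fold changes were 1.10 ± 0.43 (SE, adjusted p = 0.169) over NHD13 and 0.43 ± 0.37 (SE, adjusted p = 0.464) over control, and without replicate 4 they were 0.66 (adjusted p = 0.0915) and -0.03 (adjusted p = 0.935). Pfkm, the muscle form, was at 45.5 to 70.2 CPM in control, 28.8 and 35.6 CPM in NHD13 and 31.7 to 44.5 CPM in NHD13/MSI2, with a log2 fold change of -0.61 ± 0.20 (SE, adjusted p = 0.0564) over control. Pfkp, the platelet form, was at 63.3 to 131 CPM over all libraries and its groups overlapped. No phosphofructokinase was called in any of the 3 comparisons by edgeR or DESeq2. At an unadjusted p under 0.05, Pfkl was higher in NHD13/MSI2 over NHD13, and Pfkm was lower over control both in NHD13/MSI2 and in NHD13, where its log2 fold change was -0.77 ± 0.24 (SE, adjusted p = 0.165).

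The bifunctional enzymes of the Pfkfb genes set the level of fructose-2,6-bisphosphate, which activates phosphofructokinase and inhibits fructose-1,6-bisphosphatase. Pfkfb3, the form with the strongest kinase activity, had the highest mean level of the 4 per length in every group. It was at 76.3, 51.8 and 44.0 CPM in control, 67.1 and 74.6 CPM in NHD13 and 89.4, 100, 120 and 68.9 CPM in NHD13/MSI2. Its log2 fold change of 0.72 ± 0.23 over control (SE, adjusted p = 0.0577) was not called, and that over NHD13 was 0.42 ± 0.27 (SE, adjusted p = 0.420). Pfkfb4 was at 13.3 to 34.1 CPM, Pfkfb2 at 25.8 to 63.9 CPM and Pfkfb1 at 6.64 to 9.28 CPM over the 9 libraries. For Pfkfb4 the 4 NHD13/MSI2 libraries lay above both NHD13 libraries, with a log2 fold change of 0.78 ± 0.30 (SE, adjusted p = 0.162).

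The next 9 genes carry fructose-1,6-bisphosphate to phosphoenolpyruvate, and edgeR called 1 of them with all libraries, Aldoa over control. DESeq2 called Aldoa and Pgk1 higher over NHD13, Aldoa higher and Eno2 lower over control, and Eno3 higher in NHD13 over control. Aldoa encodes aldolase A, which cleaves fructose-1,6-bisphosphate, the substrate it shares with Fbp1. Aldoa was at 662, 636 and 637 CPM in control, 694 and 699 CPM in NHD13 and 1082, 1114, 1021 and 1264 CPM in NHD13/MSI2. The NHD13/MSI2 libraries lay above all others, and the means were 645 ± 14.8 CPM (SD, n = 3), 697 ± 3.82 CPM (SD, n = 2) and 1120 ± 104 CPM (SD, n = 4). Aldoa rose over control by 0.80 ± 0.14 on the log2 scale (SE, adjusted p = 0.00331), which is 1.74 times in the means. The change over NHD13, 0.68 ± 0.16 (SE, adjusted p = 0.0274), was not called by edgeR. DESeq2 called it (0.70, adjusted p = 4.43e-06), and so did edgeR without NHD13/MSI2 replicate 4, at 0.64 ± 0.08 (SE, adjusted p = 0.00240). The call over control was lost, with the value near the same, without control replicate 1 (0.81, adjusted p = 0.0176), control replicate 2 (0.78, adjusted p = 0.0217), control replicate 3 (0.79, adjusted p = 0.0241) or NHD13/MSI2 replicate 2 (0.81, adjusted p = 0.0110). Aldoa is on the minus strand of chromosome 7 at 126795234 to 126800751 (GRCm38, GENCODE M21). Its 3 RefSeq promoter windows are not printed. Of these, 1 held the PU.1-type core, on the other strand 215 bases before its start, and no other motif searched. The other 2 held GC boxes and no PU.1-type core.

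Aldoc, the aldolase of brain, was at 5.61 to 20.7 CPM and its groups overlapped. Of the triose enzymes, Tpi1 was at 193 to 225 CPM in control, 143 and 193 CPM in NHD13 and 172, 168, 156 and 79.0 CPM in NHD13/MSI2. Gapdh was at 253 to 293 CPM in control, 267 and 321 CPM in NHD13 and 363, 380, 321 and 96.1 CPM in NHD13/MSI2, so replicate 4 was the lowest of all 9 libraries where replicates 1 and 2 were the highest. Pgk1, which makes the first ATP of the path, was at 79.8 to 91.4 CPM in control, 75.4 and 79.7 CPM in NHD13 and 93.7 to 120 CPM in NHD13/MSI2, with log2 fold changes of 0.50 ± 0.15 (SE, adjusted p = 0.0763) over NHD13 and 0.39 ± 0.13 (SE, adjusted p = 0.0670) over control. Without NHD13/MSI2 replicate 4 edgeR called it over control, at 0.46 ± 0.10 (SE, adjusted p = 0.00840). Pgam1 was at 10.7 to 27.4 CPM. Many reads of these genes cannot be placed with certainty, since 78.3% of the 50-base stretches of Gapdh, 68.0% of Pgk1, 57.2% of Eno1 and 41.5% of Pgam1 also occur in other annotated genes, mainly pseudogenes, and how the authors counted such reads is not given in the sources used here. None of the stretches of Fbp1, Hk3 and Slc2a3 is shared in this way, and 1.84% of those of Pck2, 10.7% of those of Taldo1 and 11.15% of those of Aldoa are, the last with 6 genes of which 5 are pseudogenes.

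The enolases are Eno1, found in most tissues, Eno2 of neurons and Eno3 of muscle. Eno1 was at 6.60 to 8.87 CPM in control, 7.91 and 8.25 CPM in NHD13 and 9.52 to 15.1 CPM in NHD13/MSI2. Eno2 was at 2.58, 2.56 and 1.24 CPM in control, 1.75 and 0.198 CPM in NHD13, 0.226 CPM in NHD13/MSI2 replicate 3 and 0 in the other NHD13/MSI2 libraries. The adjusted p of Eno2 over control was 0.0186 by edgeR and 0.00104 by DESeq2. Eno3 was at 2.74 to 5.12 CPM in control, 12.7 and 9.88 CPM in NHD13 and 4.35 to 6.20 CPM in NHD13/MSI2, and NHD13 lay above both other groups. Its log2 fold change in NHD13 over control was 1.53 ± 0.35 (SE, adjusted p = 0.0521), which DESeq2 called (1.52, adjusted p = 0.00079).

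Pyruvate kinase makes pyruvate and ATP, and Pkm, the gene for its muscle and proliferating-cell forms, was the most abundant of the 43 genes per length in control and NHD13/MSI2. It was at 1444, 1228 and 1233 CPM in control, 1062 and 1310 CPM in NHD13 and 1637, 1694, 1797 and 1800 CPM in NHD13/MSI2. The NHD13/MSI2 libraries lay above all others, but the log2 fold changes of 0.55 ± 0.17 (SE, adjusted p = 0.0870) over NHD13 and 0.41 ± 0.15 (SE, adjusted p = 0.0823) over control were not called by edgeR. DESeq2 called the change over NHD13 (0.56, adjusted p = 0.00316). The counts of its 2 splice forms, PKM1 and PKM2, are summed in the table, and 36.3% of the 50-base stretches of Pkm occur in other genes as well.

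Lactate dehydrogenase is built of A subunits (Ldha), the form that favours lactate, and B subunits (Ldhb), the form of heart and oxidative tissue. Ldha was at 833, 980 and 862 CPM in control, 799 and 960 CPM in NHD13 and 760, 697, 636 and 387 CPM in NHD13/MSI2, so the NHD13/MSI2 libraries lay below all others. Its log2 fold changes were -0.50 ± 0.25 (SE, adjusted p = 0.286) over NHD13 and -0.52 ± 0.22 (SE, adjusted p = 0.138) over control. Ldhb went the other way, at 76.3, 64.8 and 118 CPM in control, 73.4 and 30.4 CPM in NHD13 and 128, 184, 202 and 133 CPM in NHD13/MSI2. Its log2 fold changes were 1.64 ± 0.40 (SE, adjusted p = 0.0344) over NHD13 and 0.91 ± 0.33 (SE, adjusted p = 0.0856) over control. Neither gene was called by edgeR, and DESeq2 called Ldhb higher over NHD13 (1.66, adjusted p = 0.000557). Ldhb made up 6.20% to 12.0% of the counts on the pair in control, 8.41% and 3.07% in NHD13 and 14.4%, 20.9%, 24.1% and 25.5% in NHD13/MSI2. Both have pseudogene copies, which share 15.3% of the 50-base stretches of Ldha and 27.0% of those of Ldhb. The lactate carriers Slc16a1 (MCT1), at 33.3 to 77.0 CPM, and Slc16a3 (MCT4), at 2.34 to 5.75 CPM, were not called.

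The first steps of gluconeogenesis turn pyruvate to oxaloacetate (Pcx) and oxaloacetate to phosphoenolpyruvate (Pck2, the mitochondrial form of phosphoenolpyruvate carboxykinase). Where Fbp1 rose, Pck2 fell. Pck2 was at 207, 151 and 156 CPM in control, 134 and 129 CPM in NHD13 and 91.1, 99.6, 119 and 87.4 CPM in NHD13/MSI2. The 3 groups did not overlap, and the means were 171 ± 30.9 CPM (SD, n = 3), 132 ± 3.42 CPM (SD, n = 2) and 99.4 ± 14.3 CPM (SD, n = 4). The log2 fold change over control was -0.78 ± 0.16 (SE, adjusted p = 0.00816), and that over NHD13, -0.41 ± 0.18 (SE, adjusted p = 0.233), was not called. The call over control is close to the threshold and was kept in 6 of 15 other fits. It was lost without control replicate 1 (-0.63, adjusted p = 0.0373), control replicate 2 (-0.87, adjusted p = 0.0168) or control replicate 3 (-0.85, adjusted p = 0.0226), without NHD13 replicate 1 or 2 (-0.76, adjusted p = 0.0165 and 0.0168), and without NHD13/MSI2 replicate 1 (-0.73, adjusted p = 0.0300) or 2 (-0.77, adjusted p = 0.0279). It was also lost with the replicate number as a block and with only control and NHD13/MSI2 in the fit. Pcx was at 4.75 to 8.44 CPM in control, 1.52 and 1.68 CPM in NHD13 and 0.828 to 6.48 CPM in NHD13/MSI2.

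The other enzymes particular to gluconeogenesis were at or near 0. Pck1, the cytosolic carboxykinase of liver, had 0 counts in all 9 libraries, and G6pc, the glucose-6-phosphatase of liver and kidney, was read in NHD13 replicate 1 alone, at 0.506 CPM. G6pc3, the glucose-6-phosphatase found in most tissues and needed by neutrophils, was at 73.1 to 108 CPM with overlapping groups. Pck2 is on the plus strand of chromosome 14 at 55540266 to 55551242 (GRCm38, GENCODE M21). Its promoter window is shown as that of the gene called in the other direction from Fbp1.
Pck2, chr14:55540016-55540265: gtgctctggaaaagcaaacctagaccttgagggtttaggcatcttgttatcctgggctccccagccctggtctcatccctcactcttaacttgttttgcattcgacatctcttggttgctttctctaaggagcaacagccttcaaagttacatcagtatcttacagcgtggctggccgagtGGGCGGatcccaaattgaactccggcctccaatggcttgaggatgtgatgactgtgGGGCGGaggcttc
The plus strand was read, and capitals mark GC boxes 69 and 13 bases before the start. The PU.1-type core, the E-box and the TATA box were not in this window.

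In the pentose phosphate pathway G6pdx, Pgls and Pgd make the oxidative branch, which gives NADPH, and Rpia, Rpe, Tkt and Taldo1 the branch that rearranges sugars. Taldo1 (transaldolase) had the highest level of the 7 per length in every group. It was at 280, 285 and 283 CPM in control, 284 and 351 CPM in NHD13 and 591, 543, 471 and 309 CPM in NHD13/MSI2. Replicates 1 to 3 of NHD13/MSI2 stood above all control and NHD13 libraries, and replicate 4 stood above control and between the NHD13 libraries. The log2 fold changes of 0.59 ± 0.25 (SE, adjusted p = 0.202) over NHD13 and 0.76 ± 0.22 (SE, adjusted p = 0.0355) over control were not called. Without replicate 4 both were, at 0.76 ± 0.13 (SE, adjusted p = 0.00664) and 0.93 ± 0.11 (SE, adjusted p = 0.000587).

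G6pdx, the X-linked gene for the enzyme that opens the pathway, was at 82.8 to 89.6 CPM in control, 86.5 and 97.3 CPM in NHD13 and 121, 127, 127 and 89.6 CPM in NHD13/MSI2. Its log2 fold change over control was 0.43 ± 0.15 (SE, adjusted p = 0.0735), and 0.54 ± 0.09 (SE, adjusted p = 0.00300) without replicate 4. Pgd was at 137, 150 and 169 CPM in NHD13/MSI2 replicates 1 to 3 and at 86.2 CPM in replicate 4, where control and NHD13 were at 89.9 to 124 CPM. Pgls was at 44.7 to 92.3 CPM in control and NHD13 and at 65.8, 70.9, 53.0 and 15.6 CPM in NHD13/MSI2, again lowest in replicate 4. Tkt (transketolase) was at 395 to 752 CPM and Rpe at 69.6 to 107 CPM. Rpia, the isomerase that makes ribose-5-phosphate, was at 14.1 to 35.2 CPM in control, 17.7 and 33.8 CPM in NHD13 and 16.6, 11.5, 12.1 and 3.63 CPM in NHD13/MSI2. None of the 7 genes was called in any comparison by edgeR, where 1 was higher and 1 lower over NHD13, and 2 were higher and 1 lower over control, at an unadjusted p under 0.05, and DESeq2 called Taldo1 over control.

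Pyruvate dehydrogenase admits pyruvate to the citric acid cycle and its kinases (Pdk1 to Pdk3 here) shut it. The X-linked Pdha1 encodes the subunit that the kinases phosphorylate. It was at 332, 321 and 341 CPM in control, 287 and 381 CPM in NHD13 and 334, 308, 342 and 242 CPM in NHD13/MSI2, with log2 fold changes of -0.13 ± 0.19 (SE, adjusted p = 0.764) over NHD13 and -0.11 ± 0.17 (SE, adjusted p = 0.688) over control. Pdhb was at 139 to 150 CPM in control and NHD13 and at 151 to 185 CPM in NHD13/MSI2. Pdk1, a kinase known from haematopoietic stem cells, was at 129 to 142 CPM in control, 118 and 159 CPM in NHD13 and 106 to 116 CPM in NHD13/MSI2, below all other libraries, with a log2 fold change of -0.30 ± 0.13 over control (SE, adjusted p = 0.146). Pdk2 was at 17.3 to 24.9 CPM and Pdk3 at 28.0 to 100 CPM, the lowest of them in NHD13/MSI2 replicate 4. None of the 5 genes was called by edgeR or DESeq2 in any comparison, and at an unadjusted p under 0.05 the count was 1, Pdk1, lower in NHD13/MSI2 over control.

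**Figure D4:**
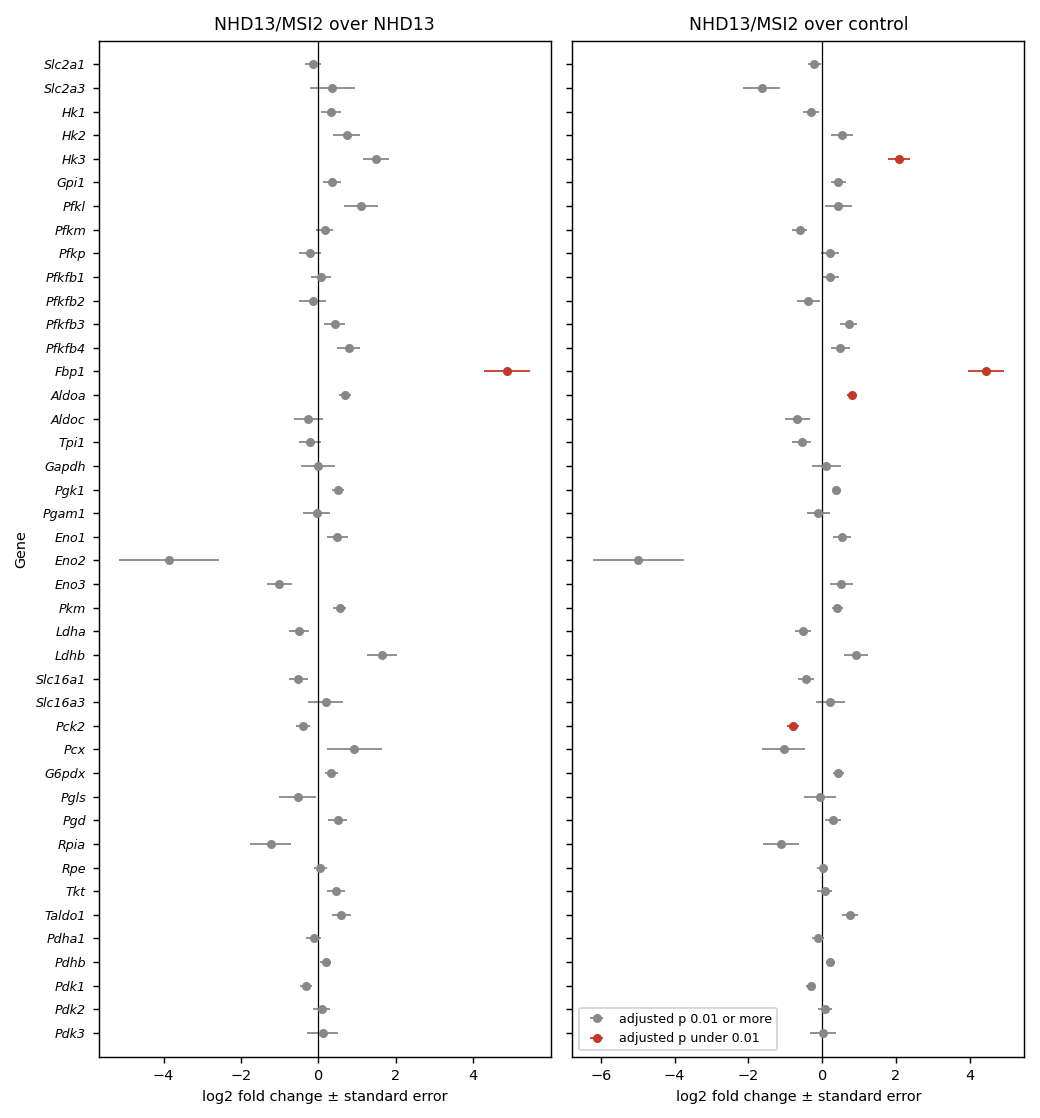
Points are log2 fold changes (horizontal axes) with bars of 1 standard error for the 42 genes tested (vertical axis), over NHD13 on the left and over control on the right, and red marks an adjusted p under 0.01. Fbp1 stands alone at 4.87 and 4.44, Hk3 follows among the called genes at 2.08 over control, and Eno2, at or near 0 counts in NHD13/MSI2, has wide bars. Among the grey points Ldhb at 1.64, Hk3 at 1.49 and Rpia at -1.23 over NHD13 and Slc2a3 at -1.65 over control also lie away from 0.

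Levels of different genes were compared as CPM per kilobase of exon. In control the order was Pkm at 501 ± 47.4 (SD, n = 3), Ldha at 471 ± 41.1 and Aldoa at 354 ± 8.13, followed by Taldo1 at 207 and Tkt at 183. The ranges of Pkm and Ldha overlapped, while Aldoa lay below both. In NHD13/MSI2 the order was Pkm at 666 ± 30.9 (SD, n = 4), Aldoa at 614 ± 56.8 and Fbp1 at 591 ± 114, and the ranges of Fbp1 and Aldoa and of Fbp1 and Pkm overlapped. Fbp1 thus stood in place 23 of 43 in control, 24 in NHD13 and 3 in NHD13/MSI2, and Hk3 went from place 22 to 14 and 10. Ldha went from place 2 in control and 1 in NHD13 to 5 in NHD13/MSI2. These places are not corrected for 50-base stretches shared with other genes, which are 0% for Fbp1, 11.15% for Aldoa, 36.3% for Pkm and 78.3% for Gapdh. How far such reads were lost from the counts was not tested, so places relative to these genes are uncertain. Without Fbp1, the other 42 genes took 0.600% to 0.881% of the counts of a library, and in NHD13/MSI2 the lowest share was that of replicate 4.

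**Figure D5:**
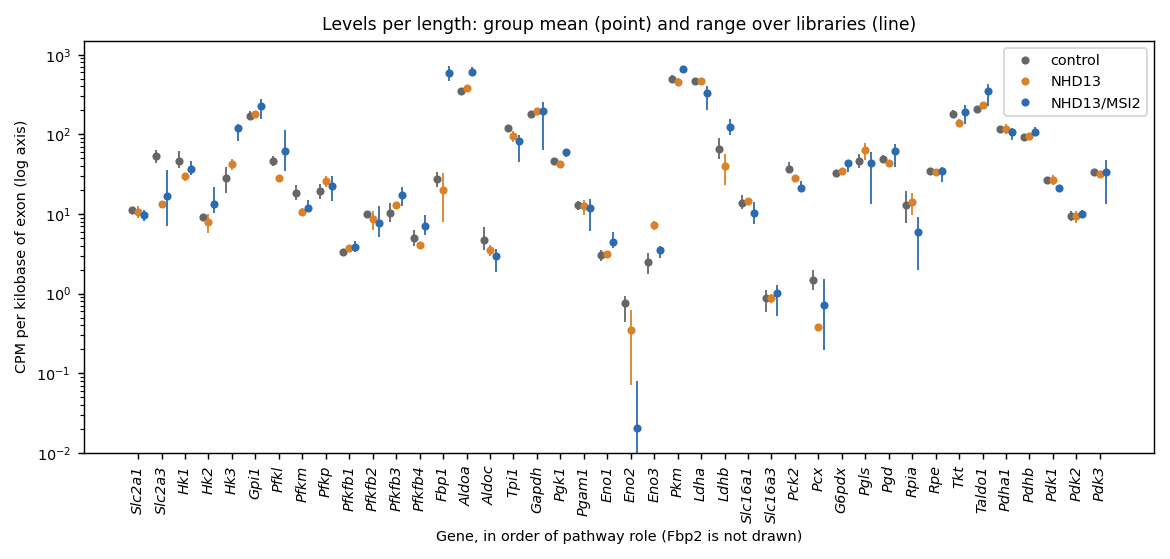
CPM per kilobase of exon (vertical log axis) of 42 genes in order of role (horizontal axis), with the group mean as a point and the range over libraries as a line. Fbp1 lies at 27.3 in control and 591 in NHD13/MSI2, near Pkm and Aldoa, and Eno2 lies at the bottom, with an NHD13/MSI2 range that reaches 0. Levels are not corrected for stretches that genes share with other genes.

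Replicate 4 of NHD13/MSI2 was the lowest of the 4 libraries for 23 of the 42 genes tested and the highest for 10, where it was lowest for 37.6% and highest for 35.5% of all genes tested. Without this library edgeR called 3 of the 42 genes over NHD13 (Fbp1, Aldoa and Taldo1, all higher) and 8 over control, where 4.86% and 15.5% of all genes tested were called in the same fit. Of these 8, Fbp1, Hk3, Aldoa, Taldo1, G6pdx and Pgk1 were higher and Slc2a3 and Pck2 lower. Fbp1 was then at 4.78 ± 0.57 (SE, adjusted p = 0.00197) over NHD13 and at 4.34 ± 0.47 (SE, adjusted p = 0.000344) over control, and Hk3 at 2.05 ± 0.30 (SE, adjusted p = 0.00142) over control.

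A further 48 genes of these pathways, with other isozymes and carriers, were all in the table and 33 passed the filter. In NHD13/MSI2 over NHD13 0 of the 33 were called by edgeR, where 3.17% of all genes were. At an unadjusted p under 0.05, 0 were higher and 5 lower, and DESeq2 called Galm and Khk lower. Over control edgeR called 1, Galm, whose enzyme converts the anomers of galactose and glucose, where 11% of all genes were called. DESeq2 called Galm and Prps2 lower over control. Galm was at 30.6, 27.1 and 26.5 CPM in control, 13.0 and 3.71 CPM in NHD13 and 0.931, 0, 0.498 and 0.0649 CPM in NHD13/MSI2, and it fell by 6.17 on the log2 scale (SE 0.85, adjusted p = 0.00112) over control. Of 15 glycogen genes 13 were tested, and edgeR called 0 over NHD13 and 1 higher and 1 lower over control. At an unadjusted p under 0.05, 2 were higher and 1 lower over NHD13. DESeq2 called Pygl and Pygm higher over NHD13, and over control Pygl and Pygm higher and Gbe1 lower. Pygl, the phosphorylase that frees glucose from glycogen, was at 61.2 to 82.9 CPM in control, 62.2 and 67.4 CPM in NHD13 and 98.2 to 139 CPM in NHD13/MSI2 and rose by 0.83 ± 0.17 (SE, adjusted p = 0.00799) over control. Gbe1, the branching enzyme that builds glycogen, was at 74.1 to 89.9 CPM in control, 76.7 and 47.4 CPM in NHD13 and 33.6 to 39.3 CPM in NHD13/MSI2 and changed by -1.18 ± 0.18 (SE, adjusted p = 0.00163). In NHD13 over control edgeR called 0 genes of both lists, where 1.03% of all genes were called. At an unadjusted p under 0.05, 1 of the 33 was higher and 1 lower, and 0 of the 13 were either. DESeq2 called 1 gene of the lists, Khk.

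Of 15 tested regulators of these pathways, 1 was called lower over NHD13 (Mycn) and 2 over control (Mycn and Ppargc1a). Of all genes tested 2.58% and 6.55% were called lower in those comparisons. Regulators called higher by edgeR were 0 in both (0 and 1 at an unadjusted p under 0.05), where 0.584% and 4.49% of all genes were. DESeq2 called Egln3 higher over control. Hif1a, Myc and Foxo1 were among the regulators not called. Mycn was at 41.1, 24.8 and 38.6 CPM in control, 132 and 60.0 CPM in NHD13 and 4.19, 5.04, 8.82 and 2.40 CPM in NHD13/MSI2, with log2 fold changes of -4.22 ± 0.47 (SE, adjusted p = 0.00132) over NHD13 and -2.76 ± 0.43 (SE, adjusted p = 0.00198) over control. Ppargc1a, which encodes PGC-1α, a coactivator of mitochondrial and gluconeogenic genes, was at 5.40 to 6.64 CPM in control, 2.30 and 1.28 CPM in NHD13 and at most 0.317 CPM in NHD13/MSI2, with a log2 fold change of -5.27 ± 0.74 (SE, adjusted p = 0.00125) over control. Over NHD13 its change of -3.53 ± 0.77 (SE, adjusted p = 0.0223) was not called by edgeR, while DESeq2 called it lower. The part of Ppargc1a in the level of Fbp1 was not tested.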

How the data were processed

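RNA was extracted from sorted LSKs of 9 samples (3 control, 2 NHD13, 4 NHD13/MSI2), and groups follow the labels. The authors deposited raw read counts per gene symbol, without normalization, in 1 table of 24073 rows. The submitters' processing notes name STAR, HTSeq, DESeq and mm9, with no role or version. The 11 rows named n-Mar are March genes whose names were turned into dates, and 2 blank names stand at the end of the table. The 11942 names after the n-Mar rows, which include those of 28 of the 43 genes, were moved down by 2 rows. Within the table this move put Xist at 21712 counts in a library, where it had 0 as deposited, and raised the median count of 77 ribosomal protein genes from 4573 to 7116, more than a move of 1, 3 or 4 rows did. The 13 rows left without a name hold 0.0253% to 0.0323% of a library and stayed out of totals and tests.

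Genes were filtered with filterByExpr by group, scaled by TMM and tested with the quasi-likelihood F-test of edgeR 4.0.16 in R 4.3.3, with all 9 libraries in a model of 3 group means and p-values adjusted over the 13355 genes tested by the Benjamini-Hochberg procedure. A gene was called at an adjusted p under 0.01, the q-value threshold that the study names, and standard errors are those of the fit. Library totals of 19242153 to 23013493 counts set the precision. The calculation was tested on simulated counts. Alternatives were DESeq2 1.42.0, RLE size factors, no filter, a robust fit, a threshold of 0.05, a fit restricted to the pair of groups, a replicate block, the names as deposited and each library left out in turn. Positions and exon lengths are from GENCODE M21 on GRCm38 and promoters from RefSeq on GRCm38.p6, a build that is not mm9. Shared stretches are 50 bases long.

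The members, marker lists and pathway lists were chosen with earlier results of these data known. Genes given in full were those called in any comparison, Fbp1, Fbp2 and the gene with the highest level in each role. Of the other lists, genes called in a comparison were named, and G6pc, G6pc3, Pck1, Slc34a1, Khk, Egln3, Prps2 and Pygm were added after their values were seen. The marker lists were stem cell, GMP and monocyte, macrophage, mature neutrophil, erythroid, megakaryocyte, B cell, T cell, and hepatocyte and kidney tubule.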

Additional observations from a re-analysis of the deposited data

Results flagged for a closer look

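In a group of 4 libraries, a gene was set aside where the gap between an extreme library and its nearest neighbour took a share of the whole range above Dixon's critical value for 4 samples, which chance gives in about 1 group of 20. This held in NHD13/MSI2 for 4 of the 42 genes tested. Hk2 was at 121 CPM in replicate 4 against 57.0 to 60.8 CPM in the other libraries, and the gap was 0.942 of the range. Hk3 was lowest in replicate 1, at 276 CPM against 433 to 447 CPM, with a gap of 0.922. Eno2 had counts in replicate 3 alone, at 0.226 CPM, so the gap was the whole range (1). G6pdx was lowest in replicate 4, at 89.6 CPM against 121 to 127 CPM, with a gap of 0.845.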

How the results depend on the processing

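The number of genes called in NHD13/MSI2 over NHD13 was 1, and it was 4 at an adjusted p under 0.05, 6 with DESeq2, 3 with the names as deposited and 0 with only the 2 groups compared. Of all genes tested 3.17% were called, and 8.81%, 9.63%, 3.17% and 0.235% in those settings. Leaving out each library in turn gave 1 to 3. In NHD13/MSI2 over control the number was 4, and it was 7 at an adjusted p under 0.05, with DESeq2 and with the names as deposited, where 11% of all genes were called, and 20.6%, 19.4% and 11% in those settings. Leaving out each library gave 2 to 8, with 2 without control replicates 1, 2 or 3 or NHD13/MSI2 replicate 2 and 8 without NHD13/MSI2 replicate 4. In NHD13 over control the number was 0, and it was 1 with DESeq2 (Eno3) and 1 with only the 2 groups compared (Slc2a3), where 4.45% and 0.637% of all genes were called against 1.03%. The cause of these differences was not tested, apart from the looser threshold and the names, which change the count by construction. The mean ratio of Fbp1 to phosphofructokinase counts in NHD13/MSI2 was 2.53 and was 2.26 to 2.71 with each library left out. The direction of Fbp1, Hk3, Aldoa and Pck2 was the same in every fit in which they were called or lost.

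Correlations of deviations from the group means ran from -0.129 to 0.209 between libraries of the same replicate number. Between libraries of different numbers they ran from -0.209 to 0.167. Deviations within a group are tied to each other, those of the 2 NHD13 libraries as mirror images, so these values cannot exclude a pairing. With the replicate block 1 gene was called over NHD13, 6 over control (Fbp1, Hk3, Aldoa, G6pdx, Taldo1 and Slc2a3) and 0 in NHD13 over control. Over all genes tested the calls went from 423, 1474 and 138 to 203, 1407 and 101 under the block. Other settings moved the calls over all genes to between 30 and 1286, 647 and 2745, and 38 and 594. Depth limited Fbp2, Eno2 and Galm, which were at or near 0 counts in NHD13/MSI2.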

Other observations

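The remaining marker lists are given as summed CPM per library, and their part in the levels of the pathway genes was not tested. The 9 mature neutrophil markers summed to 913 to 2491 in control, 142 to 532 in NHD13 and 201 to 630 in NHD13/MSI2, the 8 erythroid markers to 103 to 227, 10.9 to 28.7 and 0.997 to 19.3, and the 7 megakaryocyte markers to 87.7 to 246, 89.8 to 718 and 21.7 to 47.4. The 7 B cell markers summed to 46.5 to 58.7, 83.5 to 129 and 262 to 448, and the 7 T cell markers to 38.2 to 50.7, 203 to 206 and 64.8 to 105.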
